A study of Mus musculus with 4 samples.

Results

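Esophageal immune cells of a mouse model of eosinophilic esophagitis were searched for CD3+ cells without a cytotoxic program. A cell was gated when it held 2 or more summed UMIs (unique molecular identifiers, each counting 1 captured transcript) of Cd3e, Cd3d and Cd3g. It also had to hold fewer than 2 summed UMIs of the cytotoxic genes Nkg7, Gzma, Gzmb and Xcl1, no UMI of the B cell gene Cd79a and fewer than 5 of the myeloid gene Lyz2. This gate took 160 of 6054 cells (2.64%), 30 of them from 5 Il20rb knock-out (KO) mice and 130 from 5 wild-type (WT) mice. IL20RB is a receptor subunit shared by IL-19, IL-20 and IL-24, and its gene is the one knocked out. All 10 animals, knock-out and wild type, went through the same model. Their ears were sensitised over 14 days with MC903 (calcipotriol, 1 nmol) and ovalbumin (5 mg per ml), ovalbumin was then given in drinking water (1.5 g per l) and by 50 mg gavage on days 15 and 17, and the esophagus was taken on day 18. No unchallenged animal is among the samples, so values compare genotypes within the model only. Cells of the 10 animals were hashtagged, pooled, sorted for the leukocyte antigen CD45 and split over 2 wells for 3′ libraries, so the animal is the replicate and is numbered in hashtag order within its genotype. Age, sex and strain were not used here.

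T cells recognise antigen through a receptor of paired alpha-beta or gamma-delta chains, and signal through the CD3 chains encoded by Cd3e, Cd3d and Cd3g. Most alpha-beta cells of this kind are CD4 helper or Foxp3 regulatory cells, whereas gamma-delta cells of barrier tissue often carry a type 17 program. Group 2 innate lymphoid cells (ILC2s) make type 2 cytokines as helper type 2 cells do and share Gata3 and the IL-33 receptor Il1rl1 with them, but carry no rearranged antigen receptor.

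The 3 CD3 genes that define the gate lie close together on chromosome 9, and their promoters are shown because Cd3g was detected apart from Cd3d and Cd3e in a share of the gated cells. Each stretch holds 250 bases before and 50 after the annotated start of the gene in RefSeq, build GRCm38.p6: Cd3g at chr9:44980382-44980681 on the minus strand, Cd3d at chr9:44981536-44981835 on the plus strand and Cd3e at chr9:45009562-45009861 on the minus strand. Capitals mark matches on either strand to 5 motifs chosen after the members' values were seen.
Cd3g: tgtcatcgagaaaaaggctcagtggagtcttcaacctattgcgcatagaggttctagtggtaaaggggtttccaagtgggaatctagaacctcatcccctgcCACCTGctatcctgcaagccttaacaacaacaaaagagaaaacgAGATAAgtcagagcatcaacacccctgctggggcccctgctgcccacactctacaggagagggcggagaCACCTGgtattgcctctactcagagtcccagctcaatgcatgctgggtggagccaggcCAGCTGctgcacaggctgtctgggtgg
Cd3d: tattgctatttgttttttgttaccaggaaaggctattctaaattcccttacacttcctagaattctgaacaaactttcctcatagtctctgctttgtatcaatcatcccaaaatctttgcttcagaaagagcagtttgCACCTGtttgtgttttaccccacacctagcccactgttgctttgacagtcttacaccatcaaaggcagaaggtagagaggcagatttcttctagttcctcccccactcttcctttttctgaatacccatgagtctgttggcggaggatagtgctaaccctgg
Cd3e: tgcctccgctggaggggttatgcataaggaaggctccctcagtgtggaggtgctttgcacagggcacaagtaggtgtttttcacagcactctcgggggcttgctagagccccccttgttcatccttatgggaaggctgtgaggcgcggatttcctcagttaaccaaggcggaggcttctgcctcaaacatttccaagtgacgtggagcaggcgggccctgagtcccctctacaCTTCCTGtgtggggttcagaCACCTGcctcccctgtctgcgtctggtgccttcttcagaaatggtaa
The E-box CAGGTG, which reads CACCTG on the other strand, matched 2 times in the Cd3g promoter and 1 time each in those of Cd3d and Cd3e, and 20.03% of 27025 promoters of the same length hold it. The Cd3g promoter alone among the 3 held the E-box CAGCTG (16.1% of all promoters) and the GATA motif AGATAA (11.4%). The ETS motif CAGGAAG (13.0%) matched 1 time, in the Cd3e promoter, as CTTCCTG. The RUNX motif TGTGGT (16.9%) was in none of the 3 windows. These matches overlapped no other motif searched and describe letters only.

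The gated cells held 521297 UMIs in all, with a median of 3090 UMIs per cell. Per animal they held 14004 to 30274 UMIs in KO mice, from 2 to 10 cells, and 44744 to 124982 UMIs in WT mice, from 15 to 40 cells. The median UMIs per gated cell ranged over animals from 2542 to 7002 in KO and from 2582 to 3390 in WT. The median mitochondrial share ranged from 2.29% to 3.27% in KO and from 2.28% to 2.66% in WT. Just inside the gate, 36 cells had exactly 2 CD3 UMIs, and just outside it 63 cells had 1. On the cytotoxic side, 29 gated cells had 1 UMI, while 31 cells that met the other criteria were left out with 2. As a measure of free RNA, 7 of 3568 cells with 5 or more Lyz2 UMIs also reached 2 CD3 UMIs (0.196%, exact 95% interval 0.0789 to 0.404%), at a higher median depth of 6227 UMIs. Wells shared 2 cell barcodes in the whole table.

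The T cell label held for part of the gated cells. The constant gene of the alpha chain, Trac (14:54220521-54224198 in GRCm38.p6, within the annotated Tcra locus), had a UMI in 43.8% of gated cells, against 0.196% of Lyz2-high cells. That of the delta chain, Trdc (14:54142851-54146108, within the Tcra and Tcrd loci), had one in 12.5%, against 0 of 3568 Lyz2-high cells. The costimulatory receptor gene Icos was seen in 35.0%, against 0.308%. Split by these receptor genes, 20 gated cells had Trdc (2 of them with Trac as well), 68 had Trac without Trdc and 72 had neither. Of those 72, 31 had a Cd3e or Cd3d UMI and 41 had been gated on Cd3g alone. These classes were chosen after the values were seen, so their contents are given as a description without a test, and in cells this shallow a gene without a UMI may still be expressed.

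**Figure D1:**
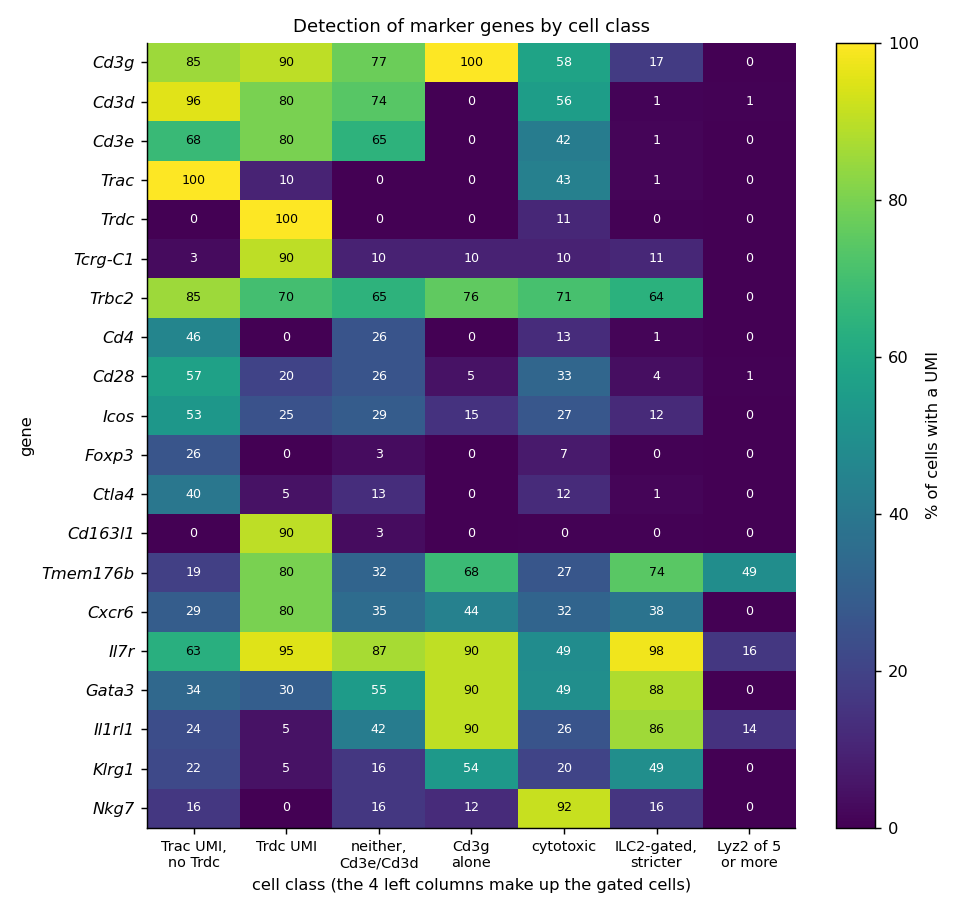
Share of cells with at least 1 UMI of each gene (rows) in the receptor classes of the gated cells and in neighbouring cell classes (columns). Cd4 and Foxp3 appear in the Trac column, Cd163l1 and Tcrg-C1 in the Trdc column, and Gata3 and Il1rl1 are each in 90.2% of the cells gated on Cd3g alone.

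The 68 Trac cells carried helper and regulatory genes. Cd4, the helper coreceptor, had a UMI in 45.6% of them, and Foxp3, the regulatory T cell factor, in 26.5%. The costimulatory receptor Cd28 was seen in 57.4%, Icos in 52.9% and the inhibitory receptor Ctla4 in 39.7%. The T cell surface genes Cd5 and Cd6 reached 45.6% and 38.2%. The lymphoid homing receptor Ccr7 was in 10.3%. Gata3 was seen in 33.8% and Il1rl1 in 23.5%, whereas the type 2 cytokine genes Il4, Il5 and Il13 were each in 2.9 to 4.4% of the Trac cells. Il17a was in 1.5% and Ifng in 2.9%. As the background for these and the next shares, Cd4, Foxp3, Cd163l1 and Gata3 were each in at most 0.224% of Lyz2-high cells, whereas Il1rl1 was in 14.5%, Arg1 in 25.8% and Maf in 60.1%.

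The 20 Trdc cells, all from WT mice, carried genes of type 17 gamma-delta cells. Cd163l1, a scavenger receptor (SCART1) of type 17 gamma-delta T cells at 7:140197218-140231145 (overlapping the annotated Olfr524), had a UMI in 90.0% of them and in 0 of the 68 Trac cells, which allows up to 4.4%. The gamma constant gene Tcrg-C1 was also in 90.0%, as was the delta variable gene Trdv4. Of the type 17 gamma-delta genes, the kinase Blk was in 50.0%, Maf in 85.0%, Zbtb16 in 30.0%, Sox13 in 15.0% and Il17a in 15.0%. Il7r, the IL-7 receptor, was in 95%, the residency receptor Cxcr6 in 80.0% and the checkpoint receptor Pdcd1 in 40.0%. Cd4, Foxp3 and Lck had no UMI in these 20 cells, which allows each a share of up to 15.0%.

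The 41 cells gated on Cd3g alone carried several ILC2 genes. Gata3 and Il1rl1 were each in 90.2% of them, the ILC2 enzyme Arg1 in 85.4% and the lectin receptor Klrg1 in 53.7%. Il5 was in 21.95% and Il13 in 9.8%. Outside the ILC2 genes listed, the IL-2 receptor Il2ra was in 80.5% and the chemokine receptor Ccr2 in 95.1%. The other ILC2 genes listed are given as UMIs over all 160 gated cells, KO then WT. Hes1 had 2 and 15, Il17rb 2 and 4, Nmur1 2 and 1, and Ptgdr2 0 and 1. Areg had 82 and 90, Calca 9 and 24, Rnf128 7 and 35, and Kit 15 and 75. Cd4, Foxp3, Ctla4, Cd5 and Cd6 had no UMI in any of the 41, which allows each a share of up to 7.3%. Set beside them were ILC2-gated cells, which held under 2 CD3 UMIs and at least 3 summed UMIs of Gata3, Il1rl1, Rora and Il7r. Without cells that also held mast cell or dendritic genes, 219 such cells remained. Their Gata3 and Il1rl1 follow from that gate: Gata3 was in 88.1% of these, Il1rl1 in 85.8%, Arg1 in 67.6% and Cd3g itself in 17.4%. The beta-chain constant gene Trbc2 was in both, in 75.6% of the cells gated on Cd3g alone and in 63.9% of these ILC2-gated cells. The 31 cells with Cd3e or Cd3d but neither receptor gene stood between, with Gata3 in 54.8%, Arg1 in 29.0% and Cd4 in 25.8%. By these genes the gated cells are CD3+ cells of several kinds and are called gated cells in what follows.

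Receptor genes of the IL-20 family had few UMIs. Il20rb, the deleted gene, and Il20ra each had 0 UMIs in the 160 gated cells of either genotype. Across the whole table Il20rb was in 0.336% of Lyz2-high cells and in 0.457% of the 219 stricter ILC2-gated cells. In all cells it had 6 UMIs in 6 of 2633 KO cells (2, 1, 1, 1 and 1 in KO animals 1 to 5) and 10 UMIs in 10 of 3421 WT cells (1, 0, 5, 2 and 2 in WT animals 1 to 5). The deleted part is not given in the sources used here and a 3′ read can lie outside it, so these UMIs do not check the genotype labels. Of 11 genes of the IL-10 and IL-20 receptor family, 3 had a UMI in gated cells. Il10rb, the other widely shared chain, was in 16.2%, Il10ra in 11.9% and Il10 in 1 cell.

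Gated cells made up a smaller share of the KO immune cells. They were 0.684, 2.56, 0.738, 1.44 and 0.884% of all CD45+ cells in KO animals 1 to 5, and 2.90, 3.77, 4.94, 5.00 and 2.60% in WT animals 1 to 5. Every KO animal lay below every WT animal, the highest KO share (2.56%) being just under the lowest WT share (2.60%). The shares fell to 1.26 ± 0.787% in KO, against 3.84 ± 1.12% in WT (SD, n = 5 each), which passed the two-sided exact permutation test over animals (p = 0.00794, the smallest that 252 splits can give; adjusted p = 0.0317 over 4 shares). The difference did not pass when gated cells were counted from cells thinned to 1000 UMIs, at 1.39% in KO and 2.76% in WT (exact permutation p = 0.0714, adjusted p = 0.190). Leaving out 1 animal at a time also ended the call for KO animals 1, 3 and 5 and for WT animals 1 to 4, with adjusted p of 0.0635 by the exact permutation test and differences of -2.81 to -2.29 percentage points. In each of these cases every remaining KO animal still lay below every remaining WT animal. With 1 animal fewer, 126 splits are left instead of 252, so a lost call does not show that the animal carried the difference. The share was 1.13% against 3.89% within well 1 and 1.38% against 3.76% within well 2 (adjusted p = 0.0635 and 0.233 by the exact permutation test).

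**Figure D2:**
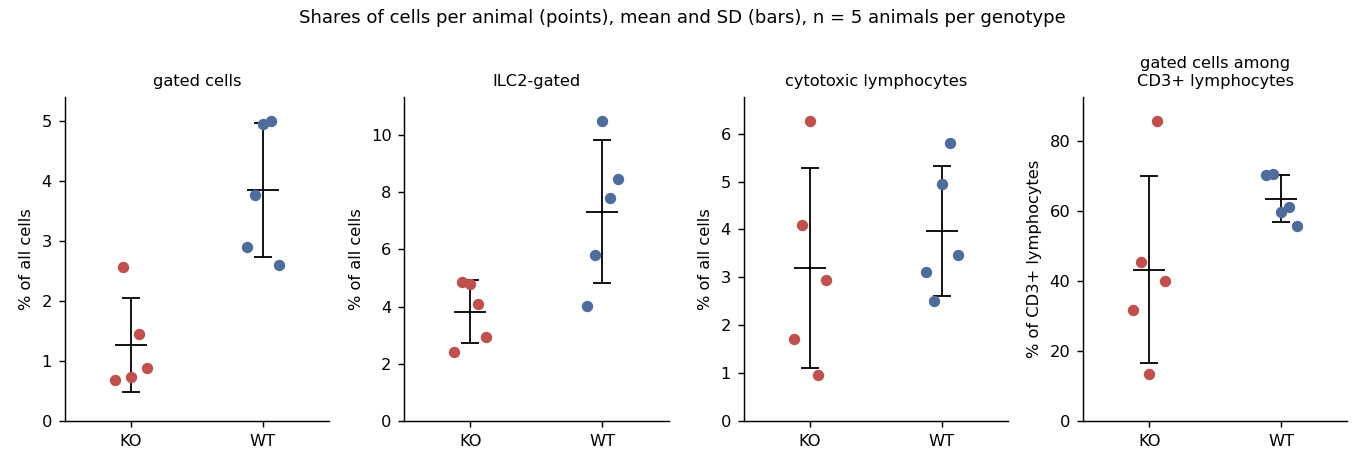
Shares of cells per animal (points, KO left of WT in each panel) with mean and SD (bars). The first 3 panels show gated cells, ILC2-gated cells and cytotoxic lymphocytes as shares of all cells. The last shows gated cells as a share of CD3+ lymphocytes. For gated cells among all cells the 2 genotypes do not overlap, with KO animals up to 2.56% and WT animals from 2.60%. They overlap in the other panels.

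The denominator changed the result. Among cells with fewer than 5 Lyz2 UMIs, gated cells were 3.94 ± 2.10% in KO and 8.49 ± 3.24% in WT (exact permutation p = 0.0397, adjusted p = 0.0741). Among CD3+ lymphocytes of either kind they were 43.2 ± 26.7% in KO and 63.4 ± 6.71% in WT (exact permutation p = 0.143, adjusted p = 0.143), with KO animals at 31.6, 45.5, 13.3, 85.7 and 40.0% and WT animals between 55.6 and 70.6%. Without KO animal 4, the highest of these, the difference was -30.8 percentage points and passed (adjusted p = 0.0317 by the exact permutation test). Of gated plus ILC2-gated cells they were 23.8 ± 7.61% in KO and 35.2 ± 7.52% in WT (exact permutation p = 0.0556, adjusted p = 0.0741). That difference turned to 0.828 percentage points after thinning to 1000 UMIs (37.4% in KO and 36.5% in WT, exact permutation adjusted p = 0.897). With the stricter ILC2 gate described above, chosen after the values were seen, the share was 38.6 ± 8.18% in KO and 43.9 ± 11.2% in WT (SD, n = 5 each), with overlap and without a test. Without KO animal 2, the shares among cells with few Lyz2 UMIs (difference -5.37) and among gated plus ILC2-gated cells (-13.98) passed, each at an exact permutation adjusted p of 0.0317. Without WT animal 5 the second of these passed as well (-14.2, exact permutation adjusted p = 0.0476). Neighbouring classes of the same table had their own shares of all cells: cytotoxic lymphocytes were 3.20 ± 2.09% in KO and 3.97 ± 1.36% in WT (exact permutation p = 0.492, adjusted p = 0.738). ILC2-gated cells were 3.82 ± 1.11% in KO and 7.32 ± 2.50% in WT (exact permutation p = 0.0317, adjusted p = 0.0952 over 3 shares). Shares of 1 whole depend on each other, and none of these is a number of cells per esophagus.

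Counts per receptor class are given without a test. Trdc cells were 0, 0, 0, 0 and 0 in KO animals and 3, 4, 3, 6 and 4 in WT animals, or 0 of 2633 KO cells, which allows up to 0.114%, against 0.645 ± 0.347% of WT cells (SD, n = 5). Trac cells numbered 3, 5, 1, 1 and 4 in KO and 9, 11, 19, 10 and 5 in WT, at 0.565 ± 0.421% of all cells in KO and 1.59 ± 0.639% in WT. Cells gated on Cd3g alone numbered 3, 2, 0, 3 and 2 in KO and 8, 5, 8, 5 and 5 in WT, at 0.374 ± 0.268% in KO and 0.906 ± 0.0898% in WT. Within the 30 gated KO cells, 0 with Trdc allow a share of up to 10.0%, and 15.4% of gated WT cells had it. Trdc UMIs were not missing from the KO animals as a whole: among cytotoxic lymphocytes Trdc had a UMI in 16 KO cells (3, 3, 2, 0 and 8 per animal) and in 7 WT cells (1, 0, 3, 1 and 2). Of these, 10 KO cells (3, 3, 1, 0 and 3) and 5 WT cells (0, 0, 3, 0 and 2) held 2 or more CD3 UMIs. Cd163l1 was in 3 KO and 20 WT cells of the whole table, of which 0 KO and 19 WT cells were gated.

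**Figure D3:**
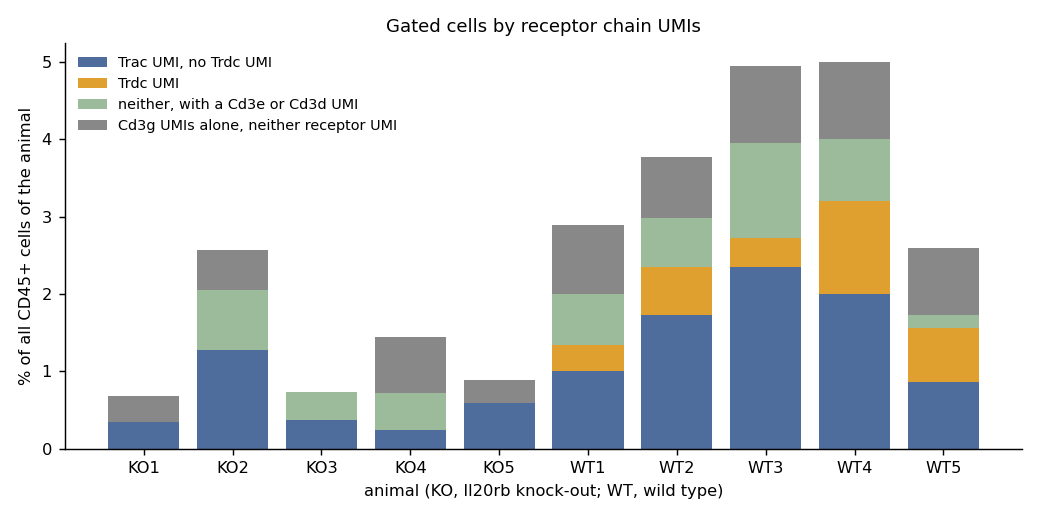
Share of all CD45+ cells of each animal (KO animals left, WT animals right) taken by the receptor classes of the gated cells, stacked. The Trdc segment is present in all 5 WT animals, at 0.334 to 1.20% of cells, and absent in the 5 KO animals.

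The 19 subset markers named for testing were compared as the share of gated cells with a UMI. In animals with at least 10 gated cells, which left 1 KO and 5 WT animals, 0 of 19 passed, and the smallest p that this design allows is 0.167. In animals with at least 5 gated cells (4 KO, 5 WT, a choice made after the data were seen), 0 of 19 passed after adjustment as well. The lowest values belonged to gamma-delta genes: a Tcrg constant gene was in 4.17 ± 8.33% of gated cells in KO and in 34.1 ± 9.19% in WT (exact permutation p = 0.00794, adjusted p = 0.101). Tcrg constant genes were not particular to the Trdc cells, of which 95% had one. They were also in 36.6% of the cells gated on Cd3g alone and in 42.9% of the stricter ILC2-gated cells. Trdc was in 0% in KO and 17.3 ± 8.10% in WT, and Cd163l1 in 0% in KO and 16.3 ± 7.81% in WT (exact permutation p = 0.0159 and adjusted p = 0.101 for both). After thinning to 1000 UMIs, a Tcrg constant gene was in 4.17% in KO and 22.003% in WT, with overlap (exact permutation p = 0.103, adjusted p = 0.396). Trdc was then in 0% in KO and 11.9% in WT (exact permutation p = 0.0159, adjusted p = 0.226). Some other markers had close means. Trac was in 45.8% in KO and 42.4% in WT, and Cd4 in 28.3% in KO and 23.03% in WT. Foxp3 was in 13.3% in KO and 11.4% in WT, and Gata3 in 51.7% in KO and 50.8% in WT. For each of these 4 the SD over animals exceeded the difference of the means. Others lay further apart. Cxcr6 was in 32.5 ± 1.67% in KO and 45.4 ± 10.3% in WT (exact permutation p = 0.0238, adjusted p = 0.113). After thinning it was in 13.3% in KO and 22.7% in WT (exact permutation p = 0.0952, adjusted p = 0.396). Tmem176b was in 31.7% in KO and 47.9% in WT, Icos in 28.3% and 37.0%, and Il1rl1 in 47.5% and 39.3%.

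Between genotypes, 4 genes of the gated cells passed, 2 higher and 2 lower in KO, out of 625 tested (0.64% called, 0.32% in each direction). Counts were summed per animal over the 4 KO and 5 WT animals with at least 5 gated cells and tested by edgeR's quasi-likelihood test, with adjusted p under 0.05; levels are CPM (counts scaled to a common total over the genes tested) after scaling by the trimmed mean of M values (TMM). With at least 10 cells per animal, KO animal 2 alone remained against 5 WT animals. By edgeR 3 of 2059 genes were then called (0.146%), Actb, Itga4 and Fosb, all higher in that animal, and 0 without robust dispersion. That fit takes the 1 animal to vary like the WT animals and sets it against them, so it is not a result for the genotype. In counts simulated for 4 KO and 5 WT animals, the test found 76.1% of the genes set to change 2-fold, 100% of those set to change 4-fold and 10 of 376 set not to change. That simulation gave all genes the same dispersion and scored only the 552 genes that passed the filter. Its shares need not hold for the data, and a gene that was not called is not shown to be unchanged.

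Jund, a subunit of the AP-1 transcription factor at 8:70697739-70700616, stood at 2596, 2464, 2421 and 2014 CPM in KO animals 1, 2, 4 and 5, against 1253, 1056, 1430, 1221 and 1207 CPM in WT animals. Every KO value lay above every WT value, and the gene rose by 0.94 ± 0.16 log2 (SE; edgeR adjusted p = 0.0119). Dynll1, the light chain LC8 of the dynein motor at 5:115297110-115300990, stood at 1614, 1509, 1695 and 1641 CPM in KO and at 666, 872, 933, 794 and 758 CPM in WT. These groups did not overlap either, and Dynll1 rose by 0.98 ± 0.18 log2 (edgeR adjusted p = 0.0144); its fold in well 1 alone, with 1 KO animal, was -0.54.

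Rpl29, which belongs to the large subunit of the ribosome and has copies elsewhere in the genome that can share its reads, stood at 1403, 855, 1049 and 1194 CPM in KO and at 2369, 2045, 1841, 2056 and 2517 CPM in WT (9:106428889-106431568). The groups did not overlap, and the log2 fold change was -0.95 ± 0.19 (edgeR adjusted p = 0.0213). Tsc22d3, the glucocorticoid-induced leucine zipper at X:140539528-140600522, stood at 140, 101, 323 and 75 CPM in KO and at 489, 486, 647, 875 and 1138 CPM in WT. It fell in every KO animal below the lowest WT animal, by 2.19 ± 0.55 log2 (edgeR adjusted p = 0.0310), on 9 KO UMIs (2, 2, 4 and 1 in KO animals 1, 2, 4 and 5) and 182 WT UMIs. Leaving out KO animal 2 ended all 4 calls, leaving out KO animal 5 ended those of Dynll1, Rpl29 and Tsc22d3, and Tsc22d3 was also lost without KO animal 1 or WT animal 4. Without the cells gated on Cd3g alone, which left 1 KO animal, the folds were 0.76 (Jund), 1.17 (Dynll1), -1.20 (Rpl29) and -2.16 (Tsc22d3), and none of the 4 passed. Without the Trdc cells, which left the same 4 KO and 5 WT animals, 5 of 414 genes were called (1.21%), 4 higher and 1 lower in KO. Jund (0.97), Dynll1 (1.00) and Rpl29 (-0.96) passed there, each at edgeR adjusted p = 0.0104, and Tsc22d3 did not (-2.28, edgeR adjusted p = 0.0501). The other 2 calls were Nme1 (1.18) and Lgals1 (0.71), also at edgeR adjusted p = 0.0104.

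**Figure D4:**
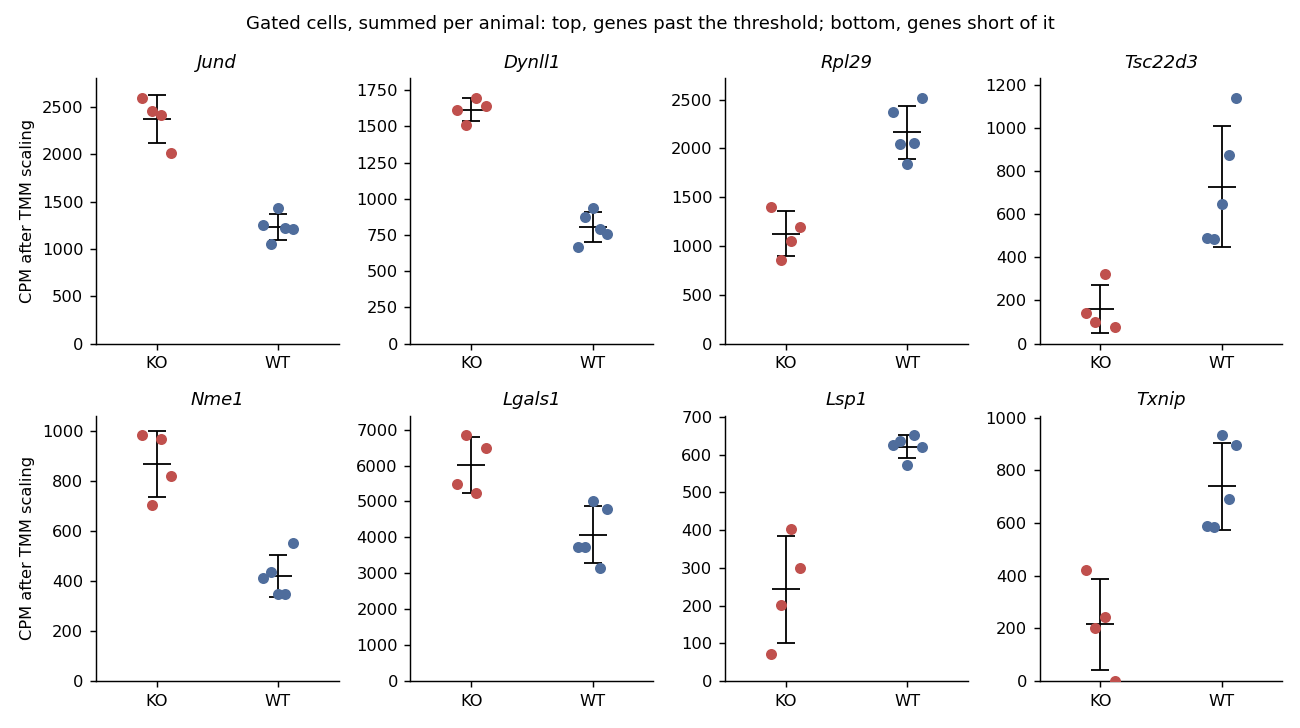
CPM after TMM scaling of 8 genes in the gated cells of each animal (points; 4 KO animals left, 5 WT animals right in each panel). The top row holds Jund, Dynll1, Rpl29 and Tsc22d3, which passed the test, and the bottom row holds genes short of it.

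In all other CD45+ cells of the same animals, Rpl29 differed to a like extent and the other 3 genes did not pass. Rpl29 averaged 567 ± 58.6 CPM in KO and 1009 ± 71.9 CPM in WT there (SD, n = 4 and 5; log2 fold -0.83 ± 0.09, edgeR adjusted p = 0.00575). The fold was 0.22 ± 0.12 for Jund, 0.13 ± 0.18 for Dynll1 and -0.91 ± 0.27 for Tsc22d3 (edgeR adjusted p of 0.868, 0.960 and 0.570). The test of the difference between gated and other cells, restricted to the 625 genes, passed for none of the 4 (edgeR adjusted p of 0.289 for Jund, 0.231 for Dynll1, 0.999 for Rpl29 and 0.337 for Tsc22d3). Over all 11308 genes, with at least 10 gated cells per animal, that difference passed for 10 genes in edgeR (0.0884%), 3 more positive (0.0265%) and 7 more negative (0.0619%) in gated cells. That fit held KO animal 2 alone against 5 WT animals, and its median difference over all genes was -1.37. With at least 5 cells it passed for 25 of 10397 genes (0.24%), all more negative, and the median difference over all genes was -0.58, so these counts are set against a shifted background. Among the 625 genes it passed for 1 (0.16%), Ctla2a, an inhibitor of cysteine proteases. Ctla2a averaged 2566 ± 736 CPM in KO and 2369 ± 703 CPM in WT in gated cells, against 69.7 ± 26.1 CPM in KO and 139 ± 18.4 CPM in WT in other cells (difference of log2 folds 1.40 ± 0.26, edgeR adjusted p = 0.0474). The other cells are a mixture that holds the ILC2-gated cells, at 3.82 ± 1.11% of all cells in KO and 7.32 ± 2.50% in WT. Gated cells held less Ctla2a than stricter ILC2-gated cells (log2 fold -0.79). The part of this mixture in the Ctla2a difference was not tested.

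Several genes had lower p-values than the rest without passing. Nme1, a nucleoside diphosphate kinase, stood at 982, 704, 968 and 821 CPM in KO and at 411, 436, 348, 346 and 552 CPM in WT (log2 fold 1.07 ± 0.25, edgeR adjusted p = 0.0635). Lsp1, an actin-binding protein of leukocytes, stood at 70, 201, 404 and 298 CPM in KO and at 626, 637, 572, 651 and 621 CPM in WT (-1.39 ± 0.37, edgeR adjusted p = 0.0635). Its KO levels rest on 1, 4, 5 and 4 UMIs. Txnip, which binds thioredoxin, stood at 421, 201, 242 and 0 CPM in KO and at 587, 587, 933, 692 and 896 CPM in WT (-1.75 ± 0.48, edgeR adjusted p = 0.0635). None of the 3 overlapped between genotypes. In these KO animals 3 counts correspond to 151 to 242 CPM, so the KO levels of Lsp1 and Txnip rest on few counts. Like the 4 called genes, all 3 were picked by low p, which makes overlap unlikely. The share of all 625 genes without overlap is not given here. Above WT were also the galectin Lgals1 (0.57 ± 0.14, edgeR adjusted p = 0.0635), the Notch effector Rbpj (0.93), cytochrome c (Cycs, 1.03), the translation factor Eif1 (0.36), prothymosin (Ptma, 0.53), the mitochondrial chaperonin Hspe1 (0.87) and the RNA helicase Ddx39b (1.22). Lgals1 turned to -0.16, Eif1 to -0.01 and Ptma to -0.20 without the cells gated on Cd3g alone. Below WT were the ribosomal genes Rps4x (-0.41), Rps12 (-0.49), Rps6 (-0.73), Rpsa (-0.38) and Rps9 (-0.31), and the peroxidase Gpx1 (-1.04).

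Grouped by function, most lists of T cell genes had few members dense enough to test and none called. The median log2 fold of all 625 genes was 0.03. Of 11 CD3 and receptor genes 6 were tested and 0 called, with Cd3e at -0.33 and Trac at 0.22. Of 13 receptor signalling genes 4 were tested, of 12 regulatory T cell genes 5, of 12 costimulation genes 4 and of 12 helper type 2 genes 2, and 0 were called in each. The costimulatory receptor Tnfrsf4 stood at 1.18 ± 0.38 (edgeR adjusted p = 0.228). Of 16 type 17 and gamma-delta genes 4 were tested, 0 called and all 4 below WT (median -0.71), led by the membrane proteins Tmem176b (-1.15 ± 0.41, edgeR adjusted p = 0.242) and Tmem176a (-1.06, edgeR adjusted p = 0.355). Their cytokine genes went untested: Il17f had 55 UMIs in KO animal 1 and 0 in the other 4 KO animals, against 2 in all WT animals, and Il17a had 15 UMIs in KO animal 1 and 0 in the others, against 21 in WT. The summed level of the 16 genes, in CPM without TMM scaling, ranged from 1090 to 4343 CPM over the 4 KO animals, with KO animal 1 the highest, and from 1816 to 3777 CPM over WT animals. Chemokine receptors had 2 of 15 tested, tissue residency genes 4 of 11, common gamma chain receptor genes 4 of 16, glycolysis genes 4 of 11, cell cycle genes 3 of 14 and MHC class I genes 7 of 13, with 0 called in each. None of the 7 helper type 1 genes and none of the 11 IL-10 and IL-20 family genes could be tested.

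Of the 4 called genes, 3 were members of lists of cell state, each the only call in its list. Over all 625 genes tested, 0.64% were called and the median log2 fold was 0.03. The lists were chosen with earlier results of these data known. Of 14 immediate early and dissociation genes 11 were tested, 1 (Jund) was called higher, and 10 lay above and 1 below WT (median 0.52). Fosb stood at 1.62 ± 0.61, Nr4a1 at 1.12 and Junb at 0.52 (edgeR adjusted p of 0.340, 0.359 and 0.374). The summed level of this list, in CPM without TMM scaling, ranged from 4740 to 16321 CPM over KO animals and from 4056 to 7956 CPM over WT animals, and its part in the Jund result was not tested. Of 12 glucocorticoid-responsive genes 5 were tested, 1 (Tsc22d3) called lower, 1 above and 4 below WT (median -0.52). All 31 ribosomal protein genes were tested, with 1 (Rpl29) called lower, 6 above and 25 below WT (median -0.13). Of 16 actin, galectin and S100 genes, all tested, 0 were called and 13 lay above WT (median 0.19), and of 13 mitochondrially encoded genes 12 were tested, 0 called and 11 lay below WT (median -0.11).

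Genes of other cell types were summed in the gated cells of the same 9 animals, in CPM without TMM scaling. The ILC2 list, 14 of 14 members with a UMI, summed to 1541 to 2543 CPM over KO animals and to 1535 to 3107 CPM over WT animals. Cytotoxic and NK genes, 13 of 16 with a UMI and Gzma, Gzmc and Ncr1 at 0, summed to 0 to 958 CPM in KO and to 260 to 670 CPM in WT. Monocyte and macrophage genes (13 of 14, Adgre1 at 0) summed to 46.7 to 284 CPM in KO and to 89.4 to 1320 CPM in WT. Dendritic genes (8 of 10, Clec9a and Itgax at 0) summed to 474 to 521 CPM in KO and to 258 to 1920 CPM in WT. Neutrophil genes (7 of 8) stayed at or under 240 CPM in every animal, and mast cell, basophil and eosinophil genes (3 of 11) at or under 105 CPM. Of B and plasma cell genes 4 of 10 had a UMI, with Ms4a1 and Cd79a among those at 0, and of epithelial and stromal genes 2 of 10. The part of these cells in the genotype results was not tested.

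Gated cells were next set against their nearest neighbours, the 205 cytotoxic lymphocytes. These met the same Cd79a and Lyz2 limits but held 2 or more UMIs of the cytotoxic genes, with no limit on CD3. Of the 205, 124 held 2 or more CD3 UMIs, and the rest lay under the CD3 limit of the gated cells. The part of the cells under that limit in the differences was not tested. In the 6 animals with at least 10 cells of both classes (KO animal 2 and all 5 WT animals), with the animal as a block and the gate genes left out, 98 of 1885 genes were called by edgeR (5.2%), 39 higher (2.07%) and 59 lower (3.13%) in gated cells. DESeq2 called 53, and 63 were called without WT animal 2. Il7r was higher in gated cells of all 6 animals, at 994 CPM in KO animal 2 and 1282, 1098, 1230, 1460 and 2085 CPM in the WT animals, against 572 CPM and 844, 556, 594, 758 and 702 CPM in their cytotoxic cells. It rose by 0.99 ± 0.15 log2 (edgeR adjusted p = 2.42e-05).

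Genes of the type 17 and gamma-delta list were prominent among those higher in gated cells, with 5 of 7 tested called and a median of 1.52, against -0.02 over all genes. Not all are particular to such cells. Tmem176b was in 80.0% of Trdc cells and 19.1% of Trac cells, but also in 68.3% of the cells gated on Cd3g alone. It was in 74.4% of stricter ILC2-gated and 48.9% of Lyz2-high cells, and Rora is a gene of the ILC2 gate. Maf averaged 637 ± 236 CPM in gated cells and 253 ± 62.0 CPM in cytotoxic cells (SD, n = 6; log2 fold 1.25 ± 0.20, edgeR adjusted p = 8.07e-05). Tmem176b averaged 621 ± 338 CPM in gated and 247 ± 70.4 CPM in cytotoxic cells (1.39 ± 0.24). Tmem176a stood at 483 against 181 CPM (1.55 ± 0.27) and the nuclear receptor Rora at 370 against 170 CPM (1.09 ± 0.23), with Rora short of the threshold by DESeq2. Tmem176b was the exception in KO animal 2, at 82.8 CPM in its gated cells against 276 CPM in its cytotoxic cells, while all 5 WT animals were higher in gated cells. Cd163l1 averaged 159 CPM in gated cells and had 0 UMIs in the cytotoxic cells of these 6 animals. Trdv4 stood at 221 against 49.8 CPM (1.94 ± 0.37).

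Other genes higher in gated cells were the CGRP receptor subunit Ramp1 (436 ± 118 against 163 ± 26.3 CPM, 1.42 ± 0.22), the glucocorticoid receptor Nr3c1 (394 against 186 CPM, 1.05 ± 0.22) and the leukotriene B4 receptor Ltb4r1 (270 against 93.3 CPM, 1.51 ± 0.29). The lymph node egress receptor S1pr1 stood at 193 against 77.8 CPM (1.24 ± 0.36). Il1rl1 (0.90 ± 0.23) and Arg1 (1.63 ± 0.38) of the ILC2 list were also called. Of 14 immediate early genes, all tested, 5 were called higher, among them Zfp36 at 642 against 240 CPM. The remaining genes of the 15 with the lowest p were Uhrf2 (1.22), Slfn5 (1.35), Ifi27l2a (1.02) and Samsn1 (0.74). Ltb4r1, Zfp36, Uhrf2 and Samsn1 did not pass without the cells gated on Cd3g alone. Trac (434 against 397 CPM, 0.17 ± 0.21) and Icos (265 against 156 CPM, 0.80 ± 0.27) did not pass, at edgeR adjusted p of 0.740 and 0.0759.

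Genes lower in gated cells were led by further cytotoxic and NK genes, which are expressed together with the gate genes and so are not independent of the gate: 7 of 8 tested were called lower. The NK receptor Klrd1 averaged 29.7 ± 27.2 CPM in gated cells and 523 ± 185 CPM in cytotoxic cells, the protease Ctsw 106 against 464 CPM, the chemokine Ccl5 322 against 4065 CPM and perforin (Prf1) 1.68 against 155 CPM. Ifitm1, Klra7 and Cd160 had no UMI in the gated cells. Outside that list, Ly6c2 (-3.02 ± 0.51), Cd7 (-3.40 ± 0.61), Ccl1 (-2.96 ± 0.54) and the non-coding AW112010 (-1.18 ± 0.16) were lower. Of 8 cell cycle genes tested 2 were called lower and all 8 lay below: the histone H2afz averaged 646 ± 205 CPM in gated cells and 1422 ± 1050.3 CPM in cytotoxic cells (-1.02 ± 0.17), and the proliferation marker Mki67 60.6 against 221 CPM (-1.67 ± 0.39). The PCNA-binding factor Pclaf, outside the list, stood at 37.5 against 262 CPM (-2.62 ± 0.49).

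**Figure D5:**
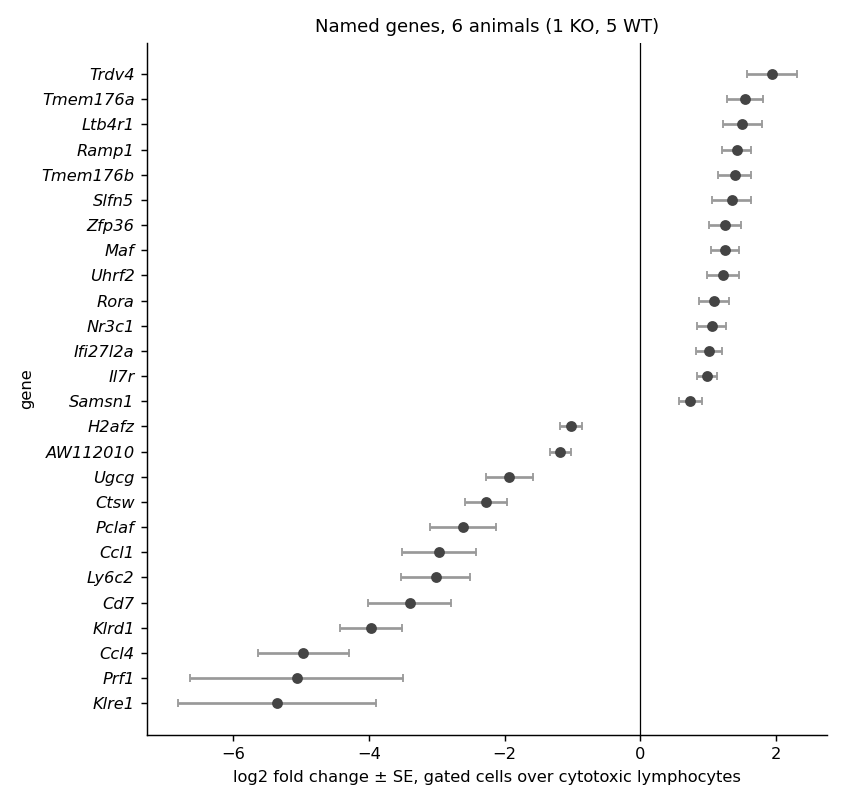
Log2 fold change with SE of 26 genes in gated cells over cytotoxic lymphocytes, from sums over 6 animals with the animal as a block. Genes right of 0, such as Il7r at 0.99 and Trdv4 at 1.94, were higher in gated cells, and genes left of 0, such as Klrd1 at -3.97, were lower.

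Against ILC2-gated cells of the same 6 animals, 437 of 2740 genes were called by edgeR (15.9%), 179 higher (6.53%) and 258 lower (9.42%) in gated cells, with the gate genes left out. T cell receptor genes were higher in gated cells, but both classes were gated on CD3 UMIs, so genes expressed with CD3 are not independent of the gates. Trdc stood at 270.2 against 1.24 CPM, and Trac was higher by 6.36 ± 0.75 log2 (396 against 4.07 CPM), Trbc2 by 1.69 ± 0.17 (764 against 243 CPM) and Trbc1 by 1.73 ± 0.22. Costimulatory and checkpoint genes were higher as well: Ctla4 stood at 195 against 3.32 CPM, and the log2 folds were 4.66 ± 0.53 for Cd28, 4.64 ± 0.63 for Tnfrsf4 and 3.20 ± 0.35 for Icos. So were Cd2, the IL-18 receptor Il18r1, the membrane gene Ms4a4b, Ikzf2, Maf, Cd4 and Cd163l1. Among the 15 lower genes with the lowest p were mast cell genes (Mcpt4, Cma1, Tpsb2) and genes of antigen-presenting cells (Mgl2, H2-DMa, Spi1). Mcpt4 had no UMI in gated cells and 1510 UMIs in ILC2-gated cells, so that gate held such cells too.

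With those cells removed, by a rule chosen after the values were seen, 103 of 1796 genes passed in edgeR (5.73%), 50 higher (2.78%) and 53 lower (2.95%), and levels are given as a description. Icos stood at 254 CPM in gated cells of KO animal 2 and at 333, 294, 257, 200 and 275 CPM in the WT animals, against 27 CPM and 101, 67, 34, 22 and 57 CPM in their ILC2-gated cells, without overlap. Trac averaged 441 against 4.65 CPM, and Cd28 266 against 18.2 CPM. On the other side, Ctla2a averaged 1953 ± 527 CPM in gated cells and 3346 ± 591 CPM in ILC2-gated cells, the G protein regulator Rgs2 1143 against 2051 CPM, the lineage factor Id2 942 against 1453 CPM and Jun 162 against 399 CPM. Every one of the 6 animals had less Ctla2a, Rgs2 and Id2 in its gated cells than in its ILC2-gated cells.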

How the data were processed

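Single-cell 3′ RNA libraries of CD45+ esophageal cells came from 5 Il20rb knock-out and 5 wild-type animals in 2 wells. The authors deposited 1 table of raw UMI counts for 32285 genes and 6054 cells, with well, genotype and hashtag in the cell names, per the file headers. Cell Ranger 6.0.1, R 4.0.5 and mm10 are named, without roles, per the submitters' processing notes; how hashtags were called, and whether reads were counted by strand, is not given in the sources used here. Per the labels' protocols 10000 cells were targeted in each well; 2885 and 3169 cells are in the table. They hold 1000 to 52182 UMIs, 501 or more genes and a mitochondrial share of up to 9.99%, which shows filters applied before deposit. Symbols and coordinates came from RefSeq tables of GRCm38.p6 (32158 identifiers matched; 127 did not and 52 sharing a symbol were kept as identifiers).

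No further cell was removed, doublets included; leaving out the 5% of cells with most UMIs was an alternative. The authors' hashtag call gave the animal of each cell. Gated cells were counted and their counts summed per animal. Shares were tested by exact permutation of the animals (two-sided), and summed counts by edgeR 4.0.16 (filterByExpr, TMM, robust quasi-likelihood, Benjamini-Hochberg) in R 4.3.3, with DESeq2 1.42.0 as an alternative. Animals needed at least 10 gated cells as designed; since 1 knock-out animal met this, the alternative of 5 cells is given first for genotype. Levels are CPM of the genes tested after TMM scaling. Log2 fold changes put knock-out over wild type, or gated over other cells. Binomial intervals and limits of a count of 0 (3 counts) cover counting error only, and whether the animals shared litters is not known. Named genes are those past adjusted p 0.05, up to 15 per direction by p, filled to 10 where fewer passed, plus list members with the lowest p. The members, lists and tests were chosen with earlier results of these data known. The code was tested on simulated counts. Other tools were Python 3.11.15, numpy 2.4.6, scipy 1.17.1 and pandas 2.3.3. Alternatives varied the gate, the thinning, the well, the filter, the scaling, the tool and the animals included. Results of some genes are not reported here.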

Additional observations from a re-analysis of the deposited data

Results flagged for a closer look

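Of 57 sets of 4 or 5 animals checked for a value far from the rest, 1 stood out, where chance gives about 1 in 20. Cycs, which encodes cytochrome c, stood at 1193 CPM in the gated cells of KO animal 1, against 603, 646 and 671 CPM in the other 3 KO animals.

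The change with genotype in gated cells was also set against that in all other CD45+ cells over all 11308 genes, in the animals with at least 10 gated cells (KO animal 2 and 5 WT animals). The 1 KO animal is taken to vary like the WT animals, so the values set that animal against them and are not a result for the genotype. The median difference over all genes was -1.37. By edgeR, 10 genes passed (0.0884%), and by DESeq2 0 passed, with 139 at an unadjusted p under 0.05. The difference from WT was more positive in the gated cells of KO animal 2 for Fosb (adjusted p = 0.00820), Ccl5 (adjusted p = 0.0391) and Tnfaip3 (adjusted p = 0.0412). It was more negative for Trdc (adjusted p = 0.00166), Tmem176b (adjusted p = 0.000823), Tmem176a (adjusted p = 0.0169), the chemokine receptor Ccr2 (adjusted p = 0.00920), Lsp1 (adjusted p = 0.0412), the heat shock gene Hspa1a (adjusted p = 0.00316) and the transcript Gm42418 (adjusted p = 4.38e-12). These calls rest on the 10 gated cells of KO animal 2. In a simulation of the same comparison with at least 5 cells, the test found 1.11% of the genes set to change 2-fold and 5.49% of those set to change 4-fold, so a gene that did not pass says little. Restricted to the 625 genes dense enough in gated cells and to 4 KO and 5 WT animals, Ctla2a passed (adjusted p = 0.0474 by edgeR), and 59 genes had an unadjusted p under 0.05. In simulation that version found 46% of 2-fold and 89% of 4-fold changes. The other cells are a mixture whose make-up can differ between genotypes, and its part in the Ctla2a result was not tested.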

How the results depend on the processing

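The lower KO share of all cells (difference -2.58 percentage points) kept its direction in every alternative run. It lost its call with 3 or more CD3 UMIs (-2.12), with no cytotoxic UMI (-1.90), after thinning (-1.36), in well 1 (-2.75), in well 2 (-2.38) and in cells with Cd3e or Cd3d only (-1.99). Without 1 animal the difference ranged from -2.90 to -2.29. Its call was lost in 7 of 10 cases (KO animals 1, 3 and 5, WT animals 1 to 4), though the genotypes still did not overlap and fewer splits were left to test. Among gated plus ILC2-gated cells the difference turned to 0.828 after thinning and ranged from -14.2 to -8.69 without 1 animal, passing without KO animal 2 or WT animal 5. The share among cells with few Lyz2 UMIs ranged from -5.37 to -3.34 and passed without KO animal 2; that among CD3+ lymphocytes ranged from -30.8 to -12.7 and passed without KO animal 4. With at least 10 cells, the 3 genotype calls became 6 in all animals, 1 by DESeq2, 11 with no filter on low counts, 0 without robust dispersion, 8 in cells with a receptor UMI, 1 without the cells of most UMIs, 0 in well 1 (where animals with at least 5 cells were used, the same fit as next) and 2 to 18 without 1 animal. With at least 5 cells, the 4 calls became 58 with no filter (all lower), 1 with no cytotoxic UMI, 12 with no Lyz2 UMI, 0 in well 1 (1 KO, 5 WT), 1 without the cells gated on Cd3g alone and 0 to 7 without 1 animal (0 without KO animal 2, 1 without KO animal 5, 7 without WT animal 3). The 10 calls against all other cells became 0 by DESeq2, 25 with at least 5 cells, 1 in the genes dense in gated cells and 7 to 12 without 1 animal. Against cytotoxic cells the 98 calls became 53 by DESeq2 and 63 to 97 without 1 animal, the fewest without WT animal 2. Against ILC2-gated cells the 437 became 233 by DESeq2, 788 with no filter, 103 under the stricter gate and 321 to 450 without 1 animal. Single genes that turned sign were Dynll1 (-0.54) and Hspe1 (-0.34) in well 1; Lgals1 (-0.072), Cycs (-0.059) and Eif1 (-0.071) in well 2; Eif1 with no filter (-0.054); Lgals1 (-0.16), Eif1 (-0.014) and Ptma (-0.20) without the cells gated on Cd3g alone; and Atox1 (0.012) and Gpx1 (0.26) under the stricter ILC2 gate. The causes were not tested, beyond the fewer animals that well 1, well 2 (1 KO, 4 WT; 3 calls) and the cells not gated on Cd3g alone (1 KO) leave. With at least 10 cells, the gates of 3 CD3 UMIs and of no Lyz2 UMI and a minimum of 20 cells left no KO animal and gave no value. No paired analysis was possible because animal numbers follow hashtag order and pair no KO with a WT animal; comparisons of cell classes used the animal as a block. Depth limits the gated KO cells, where 3 counts correspond to 151 to 242 CPM on the scale of the levels given, in the 4 animals tested.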

Other observations

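Cells with a Trac UMI numbered 14 gated KO and 56 gated WT cells, and a further 31 KO and 58 WT cells among the cytotoxic lymphocytes. Foxp3 was in 4 gated KO and 15 gated WT cells, and in 6 KO and 9 WT cytotoxic cells. Among gated cells, Cd4 was in 8 KO and 31 WT cells, and in 7 KO and 19 WT cytotoxic cells. These counts are given without a test.

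In the 1 KO and 5 WT animals with at least 10 gated cells, Itga4, an integrin subunit, stood 2.62 log2 higher in KO animal 2 than in the WT animals, Fosb 2.44 and Actb 0.92. These are values of 1 animal, not of the genotype. With 4 KO animals, Fosb stood at 281, 1810, 1533 and 149 CPM in KO and at 392, 151, 199, 550 and 379 CPM in WT, so that 2 KO animals lay above all WT animals and 2 lay among or below them.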
